A study of Homo sapiens with 4 samples.

Results

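The S100 calcium-binding protein genes were followed in the human colon cancer cell line HCT116 after knockdown of ARID1A, which is best known as a subunit of SWI/SNF, a complex that moves nucleosomes. The 10 genes (S100A2, S100A3, S100A4, S100A6, S100A10, S100A11, S100A13, S100A14, S100A16 and S100P) were taken by symbol from 60766 annotated features. All 10 reached the filter of a mean of at least 1 FPKM (fragments scaled by transcript length and by library size) and were among the 13605 features tested. The groups were 2 libraries labelled as ARID1A knockdown and carrying a short hairpin RNA (shARID1A), and 2 libraries labelled as control (CTR), all from the same line. The study asked how ARID1A loss relates to immune functions. The labels do not say what the control cells carried, how many hairpins or clones were used, or whether replicates were separate cultures, so p-values measure only the spread between these libraries, which may be technical.

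S100 proteins are small vertebrate proteins that usually pair into dimers. Each subunit carries EF-hands, helix-loop-helix motifs that bind calcium. Calcium opens a surface through which the dimer grips a target, often an annexin, a cytoskeletal protein or an enzyme. Some S100 proteins also leave the cell and bind the receptor RAGE (AGER). Most of the genes lie in tandem on chromosome 1, beside the genes of the epidermal differentiation complex. Several of them are known as markers of epithelial tumours and of invasive cells.

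On GRCh38, 9 of the 10 genes lay on chromosome 1 in the authors' loci, and S100P lay on chromosome 4 (6693878 to 6697170). S100A10 and S100A11 occupied a pair of neighbouring loci spanning 65.0 kb (151982915 to 152047907). S100A6, S100A4, S100A3, S100A2, S100A16, S100A14 and S100A13 lay 1486.7 kb further on, in a block of 97.4 kb that also holds S100A5 and S100A1 (153534599 to 153632039). All 9 are transcribed from the minus strand. The promoters of the 4 genes with the highest FPKM are printed here because these 4 rose together. Each sequence runs 5′ to 3′ on the minus strand from 250 bases before to 50 bases after the RefSeq start (GRCh38.p14). S100A6 is chr1:153535942-153536241, S100A11 is chr1:152036955-152037254, S100A10 is chr1:151993810-151994109 and S100A4 is chr1:153545757-153546056. Capitals mark matches on either strand to the GC box (GGGCGG) and to the TATA box, which was searched as TATAAA.
S100A6: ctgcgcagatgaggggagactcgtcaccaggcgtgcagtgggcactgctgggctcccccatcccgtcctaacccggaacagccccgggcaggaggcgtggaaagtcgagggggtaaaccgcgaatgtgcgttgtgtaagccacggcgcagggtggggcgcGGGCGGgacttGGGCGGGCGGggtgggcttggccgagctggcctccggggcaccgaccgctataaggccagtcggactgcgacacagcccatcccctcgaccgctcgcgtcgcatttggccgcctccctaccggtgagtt
S100A11: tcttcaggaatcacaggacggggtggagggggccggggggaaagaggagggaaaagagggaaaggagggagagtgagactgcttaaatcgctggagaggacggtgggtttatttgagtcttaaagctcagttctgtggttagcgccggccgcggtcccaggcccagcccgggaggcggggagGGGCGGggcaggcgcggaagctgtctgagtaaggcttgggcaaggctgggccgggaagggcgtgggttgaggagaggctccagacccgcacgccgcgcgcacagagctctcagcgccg
S100A10: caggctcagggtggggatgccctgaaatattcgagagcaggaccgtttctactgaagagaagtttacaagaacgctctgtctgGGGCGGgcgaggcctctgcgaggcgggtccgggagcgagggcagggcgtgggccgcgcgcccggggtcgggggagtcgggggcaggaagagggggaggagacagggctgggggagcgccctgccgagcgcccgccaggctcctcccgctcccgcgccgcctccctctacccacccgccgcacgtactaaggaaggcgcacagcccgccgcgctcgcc
S100A4: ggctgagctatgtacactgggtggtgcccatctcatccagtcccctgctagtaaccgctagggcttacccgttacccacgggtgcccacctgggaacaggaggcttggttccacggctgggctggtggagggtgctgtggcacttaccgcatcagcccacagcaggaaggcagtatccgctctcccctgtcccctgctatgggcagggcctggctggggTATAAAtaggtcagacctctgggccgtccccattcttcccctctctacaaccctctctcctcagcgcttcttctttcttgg
The GC box was found in S100A6, S100A11 and S100A10 and not in S100A4, and the exact string TATAAA in S100A4 alone of these 4. The S100A6 window holds the near match tataag, which the search did not cover. The S100A6 window held 3 GC box matches, 90, 79 and 75 bases before the start, of which the last pair overlap and read as 1 run of capitals. All 10 genes matched the RefSeq promoter table, with 14 promoters in all, of which 6 held a GC box and 3 a TATA box. Of all 35116 promoters in that table, 15786 held the GC box and 4049 (11.5%) the TATA box. The CCAAT box was found in 3 of the 14 promoters and in 34.6% of all promoters. The E-box CACGTG was found in 0 of the 14 and in 7.26% of all. The TEAD motif GGAATG was found in 2 of the 14, both of S100A16, and in 4928 of the 35116. The AP-1 site TGANTCA was found in 1 promoter each of S100A2 and S100A3 and in no other promoter of the 10 genes, against 7.71% of all promoters.

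The knockdown was checked on its target first. ARID1A was at 7.05 and 6.13 FPKM in the shARID1A libraries, against 11.1 and 11.4 FPKM in the CTR libraries. The log2 change of (FPKM + 1), used for all changes below, was -0.69 (SE 0.077, limma adjusted p = 0.00438), and the two-sided exact permutation p was 0.333, the smallest possible with 2 libraries against 2. The mean FPKM in the shARID1A libraries was 0.587 times that in the CTR libraries. Across all tested features 18.2% were called higher and 18.9% lower at a limma adjusted p under 0.05 (Benjamini-Hochberg over the 13605). The steps between low FPKM values gave library totals, in units of 1e6 fragments, of 75.5 and 74.75 for shARID1A and 69.0 and 71.0 for CTR. Mitochondrial features took 6.04% and 5.65% of all FPKM in the shARID1A libraries and 4.35% and 4.29% in the CTR libraries. Of the colon epithelium markers, EPCAM, CDH1, KRT8, KRT18, KRT19, KRT20 and CDX2 were expressed. CDX1, VIL1, LGALS4, CDH17 and GPA33 stayed at or below 0.21 FPKM in every library. Of the defining leukocyte markers, TYROBP was at 0 in all 4 libraries and PTPRC at 0.0059 FPKM in 1 library and 0 in the others, and the 8 endothelial markers summed to at most 0.805 FPKM in any library. The 10 leukocyte markers summed to 4.03 and 4.44 FPKM in the shARID1A libraries and 8.44 and 7.26 FPKM in the CTR libraries, and 1 of them, CD68, was tested and called lower. The 10 fibroblast markers summed to 20.4 and 21.9 FPKM in the shARID1A libraries and 15.6 and 14.8 FPKM in the CTR libraries, with ACTA2 called higher and COL1A1 tested but not called. The part of these shifts in the S100 results was not tested.

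Most S100 genes rose in the knockdown, and the 5 with the largest called changes differed 1.80- to 2.35-fold. Of the 10 genes, 8 were called higher, 0 were called lower and 2, S100A2 and S100P, were not called, where 37.1% of all tested features were called, 18.2% of all as higher and 18.9% as lower. Both shARID1A libraries lay above both CTR libraries for 9 of the 10 genes, against 35.8% of all tested features, and below both for 0, against 36.5%. At an unadjusted limma p under 0.05 the counts were 9 higher and 0 lower, where 24.0% of all tested features passed that limit as higher and 24.5% as lower. Both counts of 9 include S100P, which reached the filter of 1 FPKM only through its shARID1A mean of 2.14 FPKM. Its CTR mean was 0.906 FPKM, so the filter itself favoured a rise for S100P. The median log2 change was 0.76 over the 10 genes and -0.003 over all tested features. Summed over the 10 genes, the level was 10849 and 11484 FPKM in the shARID1A libraries, against 5404 and 5202 FPKM in the CTR libraries. That sum was 1.38% and 1.41% of all FPKM in the shARID1A libraries and 0.686% and 0.666% in the CTR libraries. The RNA was from whole cultures, so more cells expressing a gene and more RNA per cell cannot be told apart.

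**Figure D1:**
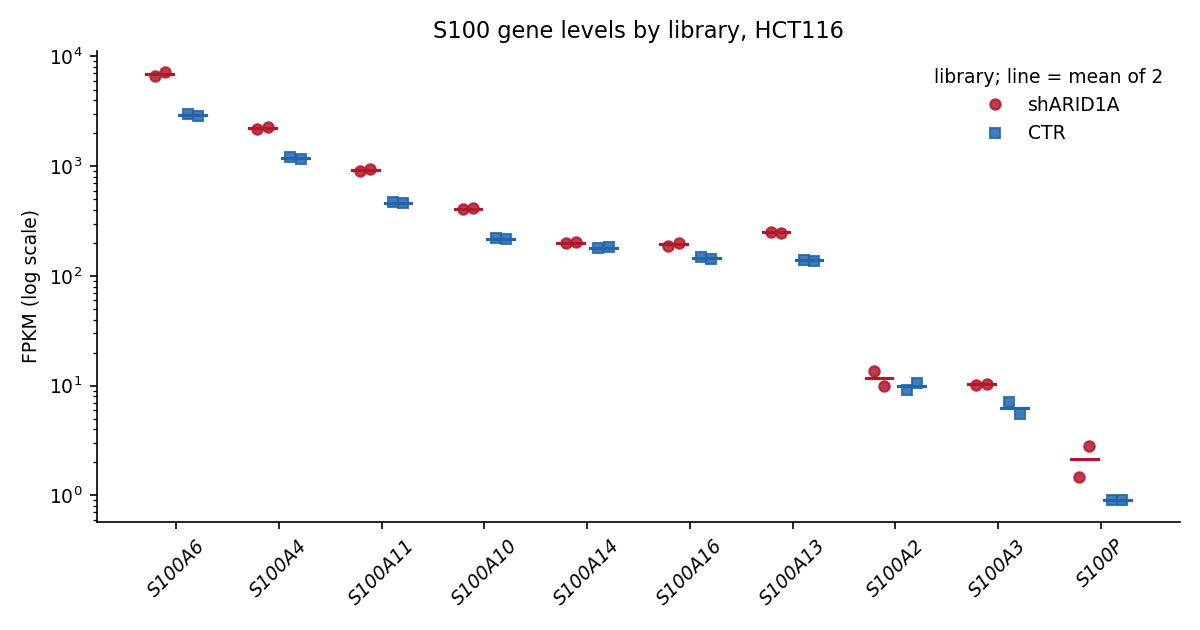
FPKM on a log scale for each of the 10 S100 genes, ordered by their mean in the CTR libraries. Points are single libraries (shARID1A left, CTR right) and lines the mean of 2; the groups overlap for S100A2 alone, and S100A6 stands highest at 6702 and 7197 FPKM in the shARID1A libraries.

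S100A6, or calcyclin, which binds annexins and the CACYBP protein, was the most abundant of the family in every library. It was at 6702 and 7197 FPKM in the shARID1A libraries, against 3018 and 2895 FPKM in the CTR libraries. Both shARID1A values were more than double each CTR value. The means were 6949 ± 349.7 and 2956 ± 86.9 FPKM (SD, n = 2 each), a 2.35-fold difference and a log2 change of 1.23 (SE 0.053, limma adjusted p = 0.00047). Among all 60766 features S100A6 ranked 7 and 5 by FPKM in the shARID1A libraries, and 46 and 51 in the CTR libraries. Only 0.639% of tested features had a larger log2 change. S100A4, known as metastasin, binds non-muscle myosin and is linked to cell motility. S100A4 was at 2173 and 2255 FPKM in the shARID1A libraries, against 1208 and 1154 FPKM in the CTR libraries, so the groups were far apart relative to their spread. Its means were 2214 ± 58.1 and 1181 ± 38.0 FPKM, 1.87-fold apart (log2 change 0.91, SE 0.043, limma adjusted p = 0.000573).

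S100A11 and S100A10, the pair set apart from the main block, both bind annexins and both rose. S100A11, or calgizzarin, binds annexin A1 in a calcium-dependent way. Its level was 904 and 943 FPKM in the shARID1A libraries, against 472 and 457 FPKM in the CTR libraries. The means of 923 ± 27.4 and 465 ± 10.2 FPKM (SD, n = 2 each) differed 1.99-fold (log2 change 0.99, SE 0.040, limma adjusted p = 0.000404). S100A10, or p11, has lost calcium binding and holds annexin A2 in a permanent complex at the plasma membrane. S100A10 was at 405 and 418 FPKM in the shARID1A libraries, against 221 and 215 FPKM in the CTR libraries, again without overlap. The means were 411 ± 9.15 and 218 ± 4.16 FPKM, 1.88-fold apart (log2 change 0.91, SE 0.036, limma adjusted p = 0.000403). S100A13 takes part in the export of FGF1 and IL1A, which lack a signal peptide. It was at 253 and 246 FPKM in the shARID1A libraries, against 140.3 and 137 FPKM in the CTR libraries, and its means differed 1.80-fold (log2 change 0.84, SE 0.035, limma adjusted p = 0.000442).

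The calls of S100A6, S100A4, S100A11, S100A10 and S100A13 held whichever library was left out. Features this large in their rise were uncommon, since 1.92% of all tested features had a log2 change of at least 0.8. Of the 1004 tested features with a mean of at least 100 FPKM, 34.9% were called higher and 2.59% had a change of at least 0.8. These S100 transcripts are short, and FPKM of short transcripts depends on the fragment length that the authors' tool assumed. The fragment-length correction that best fitted the low values was 300 and 280 bases in the shARID1A libraries and 300 and 280 bases in the CTR libraries. Among tested protein-coding genes with a median annotated transcript of 400 to 600 bases, the median log2 change was 0.0085 over 1053 genes. It was 0.014 over the 2769 genes of 600 to 800 bases.

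**Figure D2:**
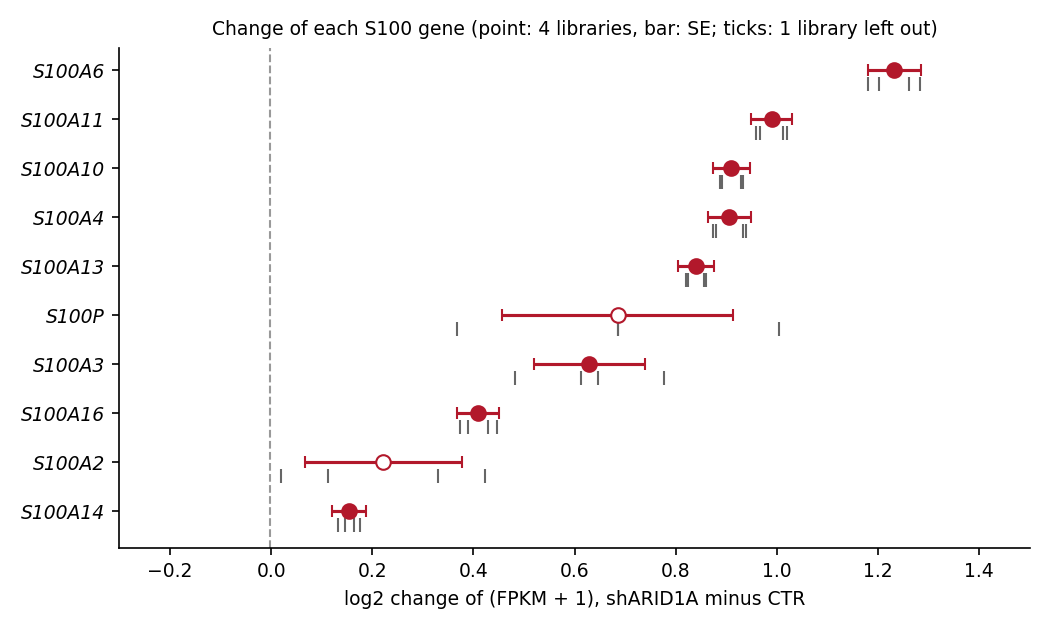
Log2 change of (FPKM + 1), shARID1A minus CTR, for each S100 gene. Points are the fit on 4 libraries with the SE as bar, filled where the limma adjusted p is under 0.05; ticks are the values with 1 library left out and the dashed line is the median of all tested features at -0.003. S100A6 lies highest at 1.23 and S100A14 lowest at 0.15.

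S100A16 and S100A14, both found in many epithelia, rose less. S100A16 was at 189 and 199 FPKM in the shARID1A libraries, against 148 and 144 FPKM in the CTR libraries. The groups did not overlap, and the means of 194 ± 6.96 and 146 ± 2.76 FPKM (SD, n = 2 each) differed 1.33-fold (log2 change 0.41, SE 0.041, limma adjusted p = 0.00332). S100A14 was at 198 and 204 FPKM in the shARID1A libraries, against 179 and 182 FPKM in the CTR libraries. Its 1.11-fold difference was the smallest among the called members (log2 change 0.15, SE 0.034, limma adjusted p = 0.0264). The S100A14 call was lost without CTR replicate 1 (adjusted p = 0.143), CTR replicate 2 (0.121) or shARID1A replicate 2 (0.0745). With all 4 libraries it was also lost under quantile normalization (0.0536) and, as a separate setting, without a filter on low values (0.0606). A log2 change above that of S100A14 was seen in 27.2% of all tested features.

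The remaining 3 genes were expressed at a far lower level. S100A3, which binds zinc as well as calcium and is best known from hair cuticle, was at 10.1 and 10.4 FPKM in the shARID1A libraries, against 7.06 and 5.57 FPKM in the CTR libraries. The groups did not overlap, and the means differed 1.62-fold (log2 change 0.63, SE 0.109, limma adjusted p = 0.0136). The S100A3 call was lost without shARID1A replicate 1 (adjusted p = 0.0575) or replicate 2 (0.0672) and without a filter on low values (0.0728). S100A2, known from the basal layer of stratified epithelia, was at 13.5 and 9.98 FPKM in the shARID1A libraries, against 9.05 and 10.7 FPKM in the CTR libraries. These ranges overlapped, and S100A2 did not pass (log2 change 0.22, SE 0.156, limma adjusted p = 0.313). S100P, a placental S100 protein also made by many adenocarcinomas, was at 1.46 and 2.82 FPKM in the shARID1A libraries, against 0.906 and 0.905 FPKM in the CTR libraries. Both knockdown values were higher, but they differed from each other by more than the lower one differed from the CTR libraries, and S100P did not pass (log2 change 0.69, SE 0.228, limma adjusted p = 0.0731). The S100P value depended on which knockdown library was kept, with a log2 change of 1.003 (adjusted p = 0.0188) without shARID1A replicate 1 and 0.37 (0.106) without shARID1A replicate 2, and a pseudocount of 0.1 gave 1.09 (0.0609). At the recovered totals and a median annotated transcript, S100P rested on roughly 55 and 109 fragments in the shARID1A libraries and 31 and 33 in the CTR libraries.

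The order of the genes by FPKM rests on the length scaling and, for transcripts this short, on the fragment length assumed in it. By FPKM, the order in the shARID1A libraries was S100A6, S100A4, S100A11, S100A10, S100A13, S100A14, S100A16, S100A2, S100A3 and S100P. The neighbours S100A14 and S100A16, and S100A2 and S100A3, overlapped in their values there. In the CTR libraries S100A13 stood below S100A14 and S100A16, the order was otherwise the same, and no neighbours overlapped. The places of S100A10 and S100A13 differ in approximate fragments. These were worked back from FPKM at the median annotated transcript length, so their order rests on that length. In the shARID1A libraries S100A14 had roughly 11091 and 11616 fragments and S100A16 roughly 9379 and 10066. S100A10 had roughly 6751 and 7522 there, and S100A13 roughly 6343 and 6478. By fragments the order S100A14, S100A16, S100A10 and S100A13 was the same in each CTR library. The change of place of S100A13 between groups is thus seen by FPKM only. In the CTR libraries S100A13 had roughly 3219 and 3437 fragments, and S100A14 roughly 9183 and 9823. S100A13 thus rose more than S100A14 in fragments too. The FPKM of S100A13 relative to S100A14 was 1.28 and 1.20 in the shARID1A libraries, against 0.782 and 0.756 in the CTR libraries. S100A6 made up 61.8% and 62.7% of the summed FPKM of the 10 genes in the shARID1A libraries, against 55.8% and 55.6% in the CTR libraries. S100A14 made up 1.83% and 1.78% in the shARID1A libraries, against 3.32% and 3.49% in the CTR libraries.

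Reads could be shared for some of these genes. The S100A3 locus lies inside that of S100A4 on the same strand, but none of the 50-base stretches in annotated S100A3 transcripts occurred in a transcript of another gene (0 of 905), nor any of S100A4 (0 of 1112). Unspliced S100A4 RNA would still cover S100A3. S100A13 overlaps S100A1, which is on the opposite strand, and 25.7% of its 50-base stretches occurred in S100A1 or AL162258.1. Whether strand was kept is not stated, and the S100A1 and S100A13 values are uncertain for that reason. AL162258.1 was at 2.68 and 2.21 FPKM in the shARID1A libraries and 2.42 and 2.35 FPKM in the CTR libraries, far below S100A13. For S100A11, 12 of 630 stretches occurred in AC006483.1, which was listed at 0 in all 4 libraries, as were the pseudogenes S100A11P1 and S100A11P2.

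Most of the rest of the family was almost silent, with S100A5 and S100A1 as the exceptions. Of 11 further S100 genes in the files, 9 stayed below the filter, with no value above 0.283 FPKM. S100A8, S100A9 and S100A12, the calgranulins of neutrophils and monocytes, were listed at 0 in all 4 libraries, as were S100A7A, S100A7L2 and S100G. S100A5, which lies 902 bases from S100A6, was at 5.76 and 6.63 FPKM in the shARID1A libraries, against 1.58 and 0.982 FPKM in the CTR libraries. Its means differed 4.84-fold, and it was called (log2 change 1.67, SE 0.155, limma adjusted p = 0.00273). S100A1, a regulator of calcium handling in muscle, was at 6.20 and 4.86 FPKM in the shARID1A libraries, against 7.41 and 7.42 FPKM in the CTR libraries, and was not called (log2 change -0.37, SE 0.111, limma adjusted p = 0.0555). The S100A1 change was -0.52 (adjusted p = 0.0264) without shARID1A replicate 1 and -0.23 (0.123) without shARID1A replicate 2.

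**Figure D3:**
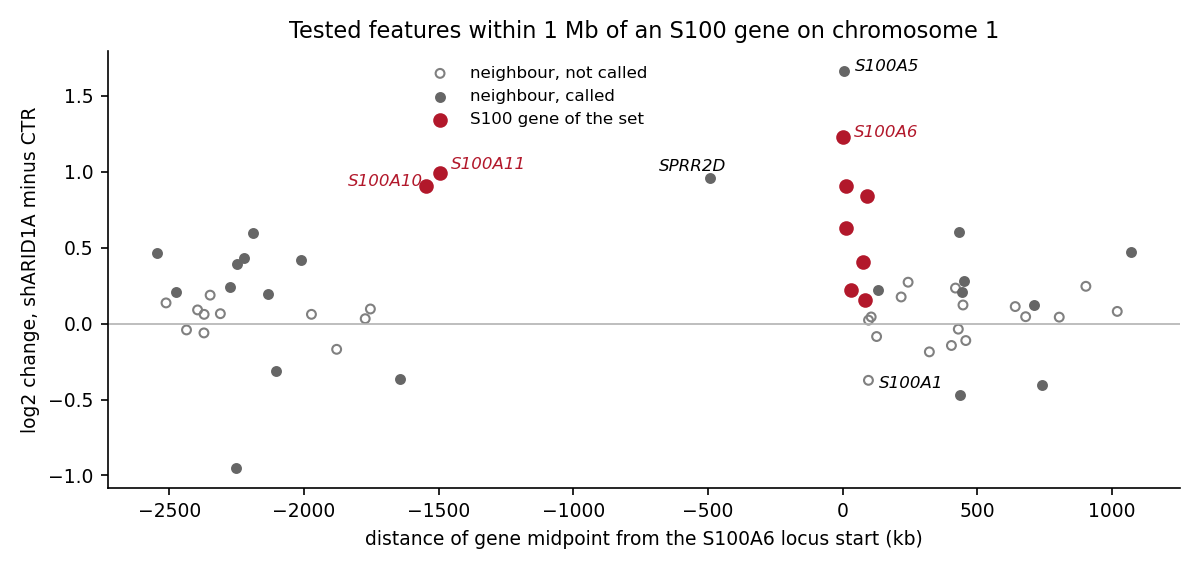
Log2 change of (FPKM + 1), shARID1A minus CTR, of tested features within 1 Mb of an S100 gene of the set on chromosome 1, by distance in kb from the start of the S100A6 locus. Red points are S100 genes of the set, grey points neighbours (filled where the limma adjusted p is under 0.05); S100A5 at 1.67 and SPRR2D at 0.96 are the neighbours with the largest rise.

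The genes beside the S100 loci moved both ways, with more called higher than lower. Of 49 tested neighbours within 1 Mb of a chromosome 1 member, 16 were called higher, 5 lower and 28 neither. The 16 made up 32.7% of the neighbours, where 18.2% of all tested features were called higher and 18.9% lower. They include S100A5, itself an S100 gene inside the main block. They also include AL358472.4, at 1.67 and 1.24 FPKM in the shARID1A libraries, against 0.629 and 0.586 FPKM in the CTR libraries. AL358472.4 reached the filter of 1 FPKM only through its shARID1A values, so the filter itself favoured its rise. The median log2 change of the 49 neighbours was 0.097. Only S100A5 and SPRR2D among them had a rise of at least 0.8 in log2. The largest fall was that of ZNF687-AS1 (log2 change -0.95, SE 0.202, limma adjusted p = 0.0233). ZNF687-AS1 was at 2.13 and 1.58 FPKM in the shARID1A libraries, against 3.61 and 5.55 FPKM in the CTR libraries. SPRR2D encodes a small proline-rich protein of the cornified envelope. It was at 2.70 and 3.15 FPKM in the shARID1A libraries, against 1.25 and 0.811 FPKM in the CTR libraries (limma adjusted p = 0.00984), a call lost without a filter on low values (0.0593). SPRR2D was the 1 tested gene of the 42 epidermal differentiation complex genes in the files, and 24 of those were at 0 in all 4 libraries. RFX5, a regulator of MHC class II genes, was at 48.8 and 47.7 FPKM in the shARID1A libraries, against 31.7 and 31.5 FPKM in the CTR libraries (log2 change 0.60, SE 0.038, limma adjusted p = 0.00116). ADAR, the RNA-editing enzyme, was at 76.3 and 72.8 FPKM in the shARID1A libraries, against 53.6 and 53.5 FPKM in the CTR libraries (log2 change 0.47, limma adjusted p = 0.00224).

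The binding partners of S100 proteins did not share one direction. Of 22 partner, receptor and cargo genes, 15 were tested, of which 5 were called higher, 6 lower and 4 neither, with a median log2 change of -0.096. ANXA2, the annexin held by S100A10, was at 893 and 888 FPKM in the shARID1A libraries, against 1056 and 1052 FPKM in the CTR libraries. It was called lower (log2 change -0.24, SE 0.032, limma adjusted p = 0.00651), a call lost without CTR replicate 1 (0.0739) or 2 (0.0722). The level of S100A10 relative to ANXA2 was 0.453 and 0.470 in the shARID1A libraries, against 0.210 and 0.205 in the CTR libraries, so S100A10 RNA gained on that of its partner. ANXA1, which S100A11 binds, was at 458 and 450.1 FPKM in the shARID1A libraries, against 315 and 310.2 FPKM in the CTR libraries, and was called higher (log2 change 0.54, SE 0.033, limma adjusted p = 0.00108). S100A11 relative to ANXA1 was 1.97 and 2.09 in the shARID1A libraries, against 1.496 and 1.47 in the CTR libraries.

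Other partners differed by less. EZR, the ezrin linker of membrane and actin that S100P binds, was at 705 and 731 FPKM in the shARID1A libraries, against 556 and 549 FPKM in the CTR libraries (log2 change 0.38, limma adjusted p = 0.00293). SUGT1, a co-chaperone bound by S100A6, had a log2 change of 0.38 (limma adjusted p = 0.00299). MYH9, the myosin heavy chain bound by S100A4, was at 37.5 and 35.7 FPKM in the shARID1A libraries, against 39.5 and 38.9 FPKM in the CTR libraries, and did not pass (limma adjusted p = 0.148). Of the S100A13 export partners, SYT1 was at 22.2 and 22.1 FPKM in the shARID1A libraries, against 50.7 and 44.1 FPKM in the CTR libraries (log2 change -1.06, SE 0.073, limma adjusted p = 0.0014). The cargo genes FGF1 and IL1A were below the filter, at no more than 0.317 and 0.126 FPKM in any library. HLTF, a chromatin remodeller that binds the S100A10 and annexin A2 complex, had a log2 change of -0.45 (limma adjusted p = 0.00299). PLAT, the plasminogen activator that binds that complex at the cell surface, had a log2 change of -0.55 (limma adjusted p = 0.00397). CACYBP, the calcyclin-binding protein, was at 152 and 153 FPKM in the shARID1A libraries, against 135 and 141 FPKM in the CTR libraries (log2 change 0.15, limma adjusted p = 0.0373), and lost its call whichever library was left out and without a filter on low values (0.0855). AHNAK, a scaffold that binds the S100A10 complex, was called higher (log2 change 0.33, limma adjusted p = 0.0166), and PPFIBP1, bound by S100A4, was called lower (log2 change -0.32, limma adjusted p = 0.0297). Both calls were lost without CTR replicate 1 (adjusted p 0.077 and 0.0819), shARID1A replicate 1 (0.0502 and 0.0984) or shARID1A replicate 2 (0.0758 and 0.103), and without a filter on low values (0.0669 and 0.111). IQGAP1 and S100PBP, partners of S100P, did not pass (limma adjusted p = 0.155 and 0.642), though IQGAP1 did without shARID1A replicate 1 (0.0483). AGER, which encodes the receptor RAGE, was at 1.28 and 1.47 FPKM in the shARID1A libraries, against 1.43 and 0.825 FPKM in the CTR libraries. These overlapped (limma adjusted p = 0.472).

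**Figure D4:**
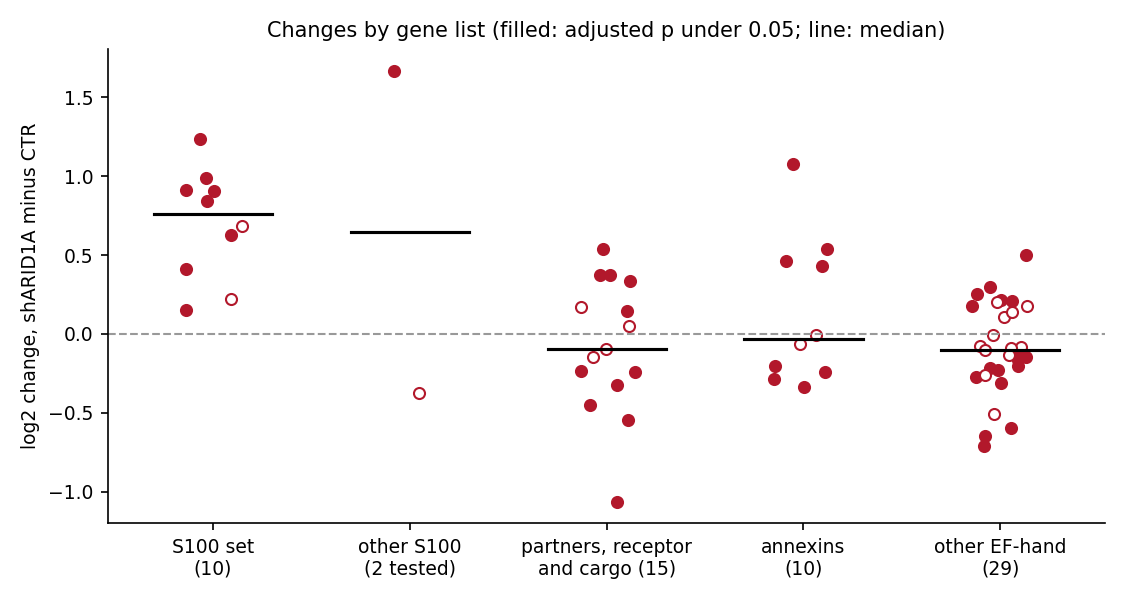
Log2 change of (FPKM + 1), shARID1A minus CTR, of the tested genes in 5 lists, with medians as black lines and the median of all tested features dashed. Filled points passed a limma adjusted p of 0.05; the 10 S100 genes have a median of 0.76, and the medians of the partners (-0.096), annexins (-0.035) and other EF-hand genes (-0.10) lie near 0.

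Neither of the 2 related calcium-dependent families had a median like that of the S100 genes. Of 10 tested annexins, 4 were called higher and 4 lower, with a median log2 change of -0.035. ANXA10 was at 9.65 and 7.87 FPKM in the shARID1A libraries, against 3.58 and 3.65 FPKM in the CTR libraries (log2 change 1.07, SE 0.104, limma adjusted p = 0.003). ANXA9 had a log2 change of 0.46 (limma adjusted p = 0.0241) and lost its call whichever library was left out (0.0609 to 0.0944) and without a filter on low values (0.0951). ANXA11, a partner of S100A6, had a log2 change of 0.43 (limma adjusted p = 0.00234), and ANXA6 one of -0.34 (limma adjusted p = 0.00543). Of 29 other tested EF-hand genes, 6 (20.7%) were called higher and 11 (37.9%) lower, with a median log2 change of -0.10. RCN1, a calcium binder of the endoplasmic reticulum, was at 129 and 126 FPKM in the shARID1A libraries, against 199.6 and 199.7 FPKM in the CTR libraries (log2 change -0.64, SE 0.033, limma adjusted p = 0.000718). NUCB1, a Golgi calcium binder, had a log2 change of -0.59 (limma adjusted p = 0.00171) and the protease gene CAPN1 one of 0.50 (limma adjusted p = 0.00505). SPARC, a secreted matrix protein, had a log2 change of -0.71 (limma adjusted p = 0.0312), a call lost without CTR replicate 1 (0.0844), CTR replicate 2 (0.138), shARID1A replicate 1 (0.079) or the filter on low values (0.119). Without CTR replicate 1 or 2 the called annexins numbered 4 and 5 and the called EF-hand genes 4 and 6, and without either shARID1A replicate the called EF-hand genes numbered 8. With CTR replicate 1 or shARID1A replicate 2 left out, 6 and 7 partner genes were called.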

How the data were processed

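Total RNA from HCT116 cells (2 shARID1A and 2 CTR samples) was sequenced after NEBNext Ultra library preparation, as the labels' protocols state. The authors deposited FPKM per feature and library, per the file headers. STAR, Cufflinks and GRCh38 are named in the submitters' processing notes, without versions; the annotation release, strand setting and filters were not given in those sources. Each table held 60811 features; 45 second copies of genes shared by X and Y were dropped and 2347 values under 1e-09 set to 0. Features with a mean of at least 1 FPKM over the 4 libraries were fitted on log2(FPKM + 1), which understates the change of low genes, with limma 3.58.1 in R 4.3.3 (lmFit, eBayes with a trend). Benjamini-Hochberg adjustment ran over all 13605. Called means an adjusted p under 0.05. Count models were not applied to FPKM. Fold changes are ratios of mean FPKM.

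Depth came from genes with 1 annotated transcript (GENCODE 29) of at least 1500 bases. Of their low values, 78.0% to 80.1% were whole within 0.1 fragment, against 19.8% to 24.1% with scrambled lengths. Only 19 and 18 of the 13605 values were identical between the shARID1A and between the CTR replicates, so no library was a copy of another. On simulated data for this comparison over 13605 genes, the fit recovered 39.7% of genes changed by a log2 of 0.5, 74.9% at 1 and 92.7% at 2. Of the simulated calls, 2.68% were false. Each simulated run changed 200 genes, whereas 5046 features were called in the real data. The Benjamini-Hochberg limit depends on that share, so these rates need not hold for the real fit.

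The members and the gene lists were chosen with earlier results of these data known. All 10 members were named. Of the lists, tested partners, up to 4 called annexins and EF-hand genes by size of change with partners of a member, up to 4 called protein-coding neighbours within 1 Mb, and features overlapping a member could be named. Alternatives changed the pseudocount to 0.1, dropped the filter or raised it to a mean of 5 FPKM, applied quantile or median ratio scaling, rescaled without mitochondrial features, used robust eBayes, added the replicate number as a block, or left out each library. One tested partner gene is not reported here by name.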

Additional observations from a re-analysis of the deposited data

How the results depend on the processing

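Of the 10 S100 genes, between 6 and 8 were called higher and 0 lower under each of the 12 alternatives tried, which include leaving out each library in turn. S100A2 kept its direction and was called under none, with log2 changes between 0.020 and 0.42. Among all tested features, 4.73% were called higher without a filter and 23.2% at a mean of at least 5 FPKM, where S100P was not tested. Under the other alternatives with 4 libraries that share was 14.8% to 19.0%. No scaling moved the median log2 change of all tested features by over 0.1. Without a filter on low values, 2786 features were called, against 5046 in the fit reported, with 7 partner genes, 9 EF-hand genes and 2 genes of the epidermal differentiation complex among them, SPRR2D not being 1 of these (adjusted p = 0.0593); at a mean of at least 5 FPKM that complex had 0 called, since its tested gene fell below the filter, as did S100P. With 1 library left out, called features numbered 1900 to 3259 (1900 without CTR replicate 1, 1990 without CTR replicate 2, 3259 without shARID1A replicate 1 and 3001 without shARID1A replicate 2), partner genes 6 to 9, annexins 4 to 7, EF-hand genes 4 to 8 and other S100 genes 1 to 2. Fewer libraries leave fewer degrees of freedom, and the lone library of a group is then assumed to vary like the other group. The ARID1A change lay between -0.76 and -0.66 under the alternatives with 4 libraries and -0.78 and -0.60 with 1 left out. With the replicate number as a block, 4126 features and 7 S100 genes were called, and S100A14 was not (adjusted p = 0.0559). Same-numbered libraries did not deviate together (correlation across features -0.0099). That value cannot show that the samples were unpaired, and the labels do not say whether the numbers pair them. Precision is limited by 2 libraries per group.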

Other observations

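Keratin genes and EPCAM moved beside the S100 genes. KRT20, a keratin of differentiated intestinal epithelium, was at 14.3 and 13.5 FPKM in the shARID1A libraries, against 2.01 and 2.42 FPKM in the CTR libraries (log2 change 2.22, SE 0.087, limma adjusted p = 0.000395). KRT8, KRT18 and KRT19, keratins of simple epithelia, were called higher as well, with log2 changes of 0.70, 0.42 and 0.58 (limma adjusted p = 0.000768, 0.00288 and 0.00264). EPCAM, an epithelial adhesion protein, was at 147 and 141 FPKM in the shARID1A libraries, against 312 and 312 FPKM in the CTR libraries (log2 change -1.11, SE 0.037, limma adjusted p = 0.000363). CDH1 and CDX2 did not pass (limma adjusted p = 0.214 and 0.465). These markers were listed with earlier results of the data known, and their part in the S100 changes was not tested.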
